A study of Mus musculus with 21 samples.

Results

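The molecular clock of the liver was read through 10 transcripts: the activators *Arntl* (Bmal1) and *Clock*, the repressors *Per1*, *Per2*, *Per3*, *Cry1* and *Cry2*, the nuclear receptors *Nr1d1* (Rev-erbα) and *Nr1d2* (Rev-erbβ), and the output factor *Dbp*. They were chosen by gene symbol, with earlier results of these data known, and make up 10 of the 46078 gene identifiers in the count table. All 10 were counted in every library and were among the 14370 genes that passed a filter on low counts. In liver, the protein pair of ARNTL and CLOCK binds E-box sequences and turns on the *Per*, *Cry*, *Nr1d* and *Dbp* genes, whose PER and CRY products then hold that pair back. The REV-ERB receptors repress *Arntl* and *Cry1*, so that *Arntl* and *Dbp* are high at opposite times of day. Meal times, glucocorticoids and body temperature are each known to shift this clock in liver, and *Per1* and *Per2* also answer to them acutely.

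The data were bulk RNA-seq of liver from 21 male mice under calorie restriction, 1 library per animal as the titles give them, in a cross of 2 genotypes with 3 diets. Cystathionine γ-lyase knockouts (labelled cse, gene *Cth*, on a 129/C57BL/6 background) are called KO, and the comparison genotype is WT as labelled, although the study's text describes its comparison animals as heterozygous (*Cse*+/−). The mice were at least 9 weeks old. After 3 days of the calorie-restricted control diet they spent 2 days on a defined amino acid diet that was complete (CTR), lacked cysteine (noCys) or lacked tryptophan (noTrp), with the other amino acids raised in proportion. On the control diet there were 3 WT and 4 KO animals (WT CTR and KO CTR). The WT noCys group held 4 animals and the KO noCys group 3 (replicates 1, 3 and 4), and there were 2 animals in WT noTrp and 5 in KO noTrp. The hour at which these livers were collected is not given in the sources used here, so time of day, time since the last meal and diet cannot be told apart where they differ between animals. In its metabolic cage experiment the study gave the restricted food daily in the afternoon, but it states no feeding hour for these animals.

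Library totals ran from 8889951 to 27230852 counts. *Cth* was lower in each KO library (6.34 to 15 counts per 1000000, CPM) than in each WT library (108 to 452 CPM). The 7 hepatocyte markers summed to between 47244 CPM in KO noCys replicate 3 and 111278 CPM, with KO noCys replicate 4 next lowest at 51882 CPM, and skeletal muscle markers never exceeded 3.66 CPM. In bulk tissue, fewer cells of a type and less RNA per cell cannot be told apart. CPM values here are counts scaled to library sizes corrected by the trimmed mean of M values (TMM). Fold changes are log2 values with standard errors (SE) from edgeR's quasi-likelihood test, fitted to all 21 libraries together. Adjusted p-values are Benjamini-Hochberg values of that test over all 14370 genes, with other tools named where they were used, and under 0.05 counts as called.

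Across the 6 groups, *Clock*, *Per1*, *Cry1* and *Nr1d1* differed, which was 4 of the 10 clock genes against 28.7% of all genes tested (adjusted p = 0.0109, 0.00513, 0.0216 and 0.00879, edgeR). *Nr1d2* came next (adjusted p = 0.0630), and *Arntl*, *Per2*, *Per3*, *Cry2* and *Dbp* had adjusted p-values from 0.224 to 0.907. The differences were unlike in shape. *Nr1d1* had lower means on both depleted diets in both genotypes, *Per1* and *Cry1* differed between KO and WT livers on the noCys diet, and *Clock* had its highest mean in WT CTR.

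**Figure D1:**
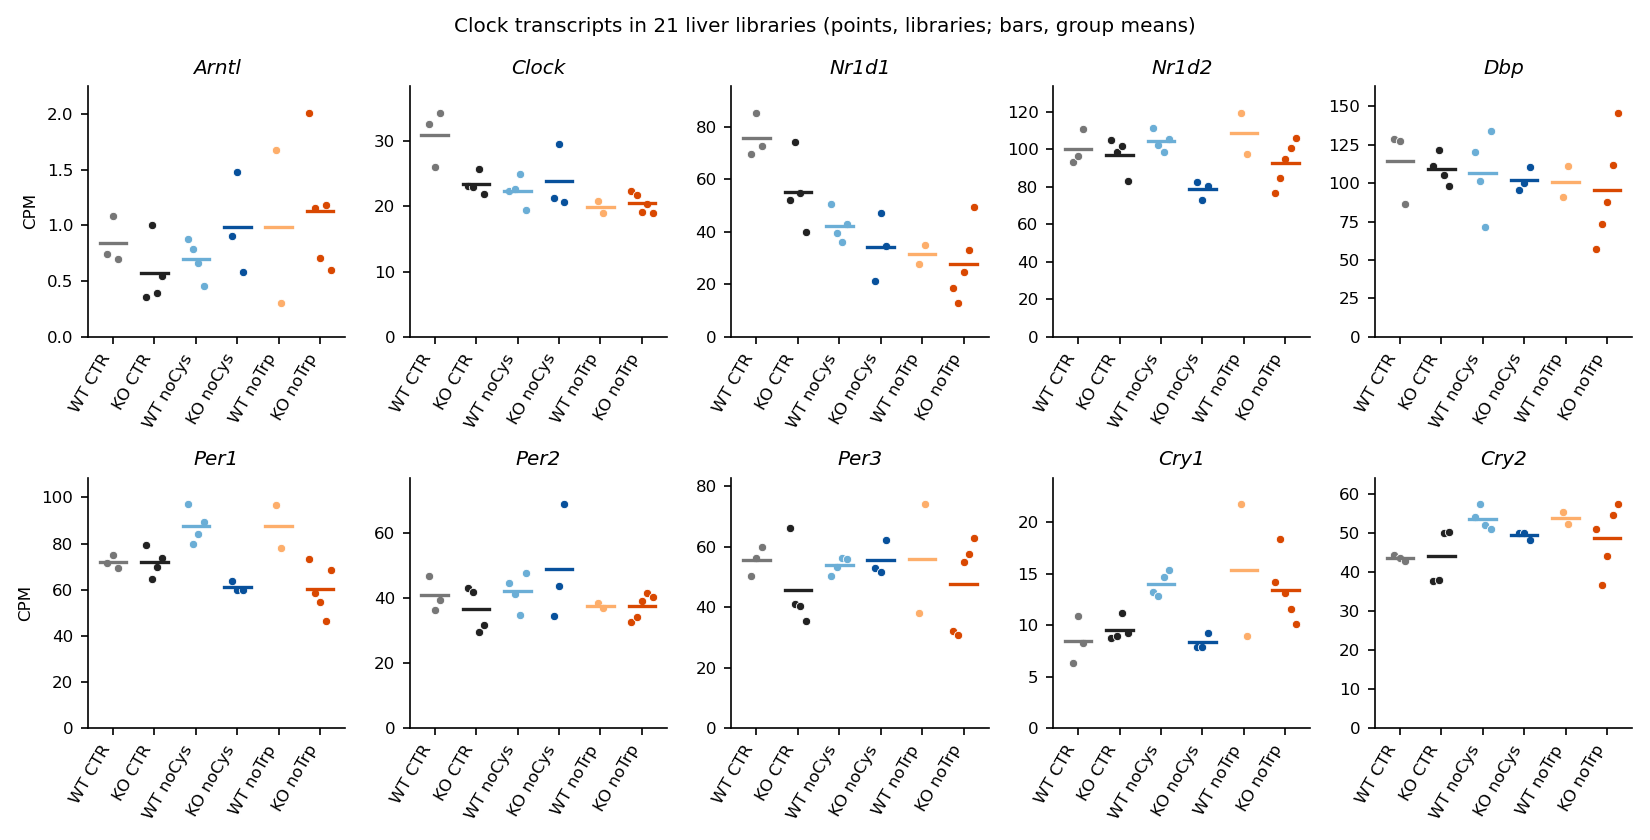
CPM (y axes, each from 0) of the 10 clock transcripts in the 6 groups (x axes), with 1 point per library and a bar at the group mean. *Nr1d1* reached 85.4 CPM in WT CTR and 12.9 CPM in KO noTrp, *Per1* in KO noCys lay below each WT noCys library, and *Arntl* did not exceed 2.01 CPM.

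On the diet without cysteine, 3 clock genes were called between the genotypes, a share close to that of all genes. *Per1*, *Cry1* and *Nr1d2* were lower in KO noCys than in WT noCys livers, 3 of 10 called against 28.2% of all genes tested, or 13.4% called lower and 14.8% called higher. In each of these 3 genes the KO noCys libraries lay below all WT noCys libraries, as they did for *Cry2*, which was not called, so that 4 of 10 did not overlap against 37.6% of all genes. With library totals as the only scaling, the median of all genes there was 0.20 and the 3 calls were lost (*Per1* −0.31, *Cry1* −0.53 and *Nr1d2* −0.20). Marker sums also differed between these livers without overlap, with hepatocyte markers at 47244 to 76655 CPM in KO noCys and 99534 to 111278 CPM in WT noCys, endothelial markers at 85.5 to 93.6 and 97.1 to 142 CPM, erythroid markers at 119.8 to 147 and 168 to 341 CPM, and cholangiocyte markers at 16.1 to 18.1 and 34.2 to 57.8 CPM. Their part in the clock gene values was not tested. A genotype difference in the effect of removing cysteine, tested as an interaction, was called for 0 of 10 clock genes by edgeR, against 7.44% of all genes. There, 4 of 10 had an unadjusted p under 0.05 (23% of all genes), and DESeq2 called 0 of 10 (10.9% of all genes), while an edgeR fit of the 4 compared groups alone called *Per1* (adjusted p = 0.0216) and *Cry1* (adjusted p = 0.0250). The nearest were *Per1* (−0.52, SE 0.18, adjusted p = 0.0849) and *Clock* (0.50, SE 0.18, adjusted p = 0.0937, and 0.31 without KO noCys replicate 3).

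Within WT, *Clock* was the 1 clock gene that edgeR called for a diet. It fell in WT noTrp against WT CTR, 1 of 10 against 3.19% of all genes, or 1.5% called lower, and 4 of 10 genes (*Clock*, *Nr1d1*, *Per1* and *Cry2*) did not overlap there against 30.6% of all genes. DESeq2 called *Clock* and *Nr1d1* there as lower (7.31% of all genes). Between these livers, summed Kupffer cell and leukocyte markers (134 to 138 CPM in WT noTrp and 62.7 to 101 CPM in WT CTR) and stellate markers (184 to 237 and 283 to 318 CPM) did not overlap, and their part was not tested. Against the same controls, WT noCys had 0 of 10 called by edgeR, where 0.661% of all genes were called. Yet 5 of 10 (*Clock*, *Nr1d1*, *Per1*, *Cry1* and *Cry2*) had an unadjusted p under 0.05 (13.9% of all genes), and these 5 did not overlap between the groups (16.4% of all genes). DESeq2 called 1 of them, *Clock*, as lower (2.55% of all genes). Hepatocyte marker sums did not overlap there either (99534 to 111278 CPM in WT noCys and 85436 to 98479 CPM in WT CTR).

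Within KO, edgeR called 0 of 10 clock genes on either depleted diet. For KO noCys against KO CTR, where edgeR called 20.2% of all genes, 3 of 10 had an unadjusted p under 0.05 (33.3% of all genes) and 2 of 10, *Per1* and *Nr1d2*, did not overlap (28.6% of all genes). Summed markers that did not overlap between these livers were those of hepatocytes (47244 to 76655 CPM in KO noCys and 77271 to 87232 CPM in KO CTR), erythroid cells (119.8 to 147 and 163 to 312 CPM) and cholangiocytes (16.1 to 18.1 and 19.7 to 62.3 CPM), and their part was not tested. Over the 7 hepatocyte markers the median was −0.04, with 2 called lower. Of the clock genes, DESeq2 called *Nr1d2* alone (22.1% of all genes). For KO noTrp against KO CTR, where edgeR called 1.87% of all genes, 3 of 10 had an unadjusted p under 0.05 (16.9% of all genes) and 0 of 10 did not overlap (6.33% of all genes). DESeq2 called *Nr1d1* alone (4.68% of all genes). Adipocyte sums (10.99 to 17.8 CPM in KO noTrp and 5.85 to 10.1 CPM in KO CTR) and pancreas sums (14.7 to 22.1 and 11.3 to 14.1 CPM) did not overlap. These sums rested on few genes, since only 2 of 5 adipocyte markers and 1 of 5 pancreas markers passed the filter. The median of the 2 adipocyte markers was −0.005 and the value of the pancreas marker 0.54, with 0 called in either list. KO noCys and KO noTrp, compared directly, gave 0 of 10 by edgeR (13.9% of all genes), 3 at an unadjusted p under 0.05 (29.4%), 1 without overlap, *Cry1* (19.6%), and *Cry1* alone by DESeq2 (18%). Here the sums of endothelial markers (85.5 to 93.6 CPM in KO noCys and 112 to 150.2 CPM in KO noTrp), Kupffer cell and leukocyte markers (69.8 to 82.2 and 100.1 to 160.3 CPM) and cholangiocyte markers (16.1 to 18.1 and 25.6 to 48.4 CPM) did not overlap. The part of these marker differences was not tested.

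The other comparisons of genotypes called no clock gene by edgeR. For KO CTR against WT CTR edgeR called 0 of 10, against 0.32% of all genes. Only *Clock* had an unadjusted p under 0.05 (9.59% of all genes) and did not overlap (10.9%), and DESeq2 called 0 of 10 (1.07%). Pancreas sums did not overlap there (11.3 to 14.1 CPM in KO CTR and 16.7 to 23.3 CPM in WT CTR). Only 1 of the 5 pancreas markers passed the filter, and its value (−0.74) was not called. For KO noTrp against WT noTrp edgeR called 0 of 10, against 0.195% of all genes. Only *Per1* had an unadjusted p under 0.05 (8.91% of all genes), did not overlap (9.94%) and was called by DESeq2 (0.816%). A genotype difference in the effect of removing tryptophan was called for 0 of 10 by edgeR (0% of all genes) and by DESeq2 (0.131%), with 2 of 10 at an unadjusted p under 0.05 (5.71%). Comparisons that share a group of animals are not independent of one another.

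**Figure D2:**
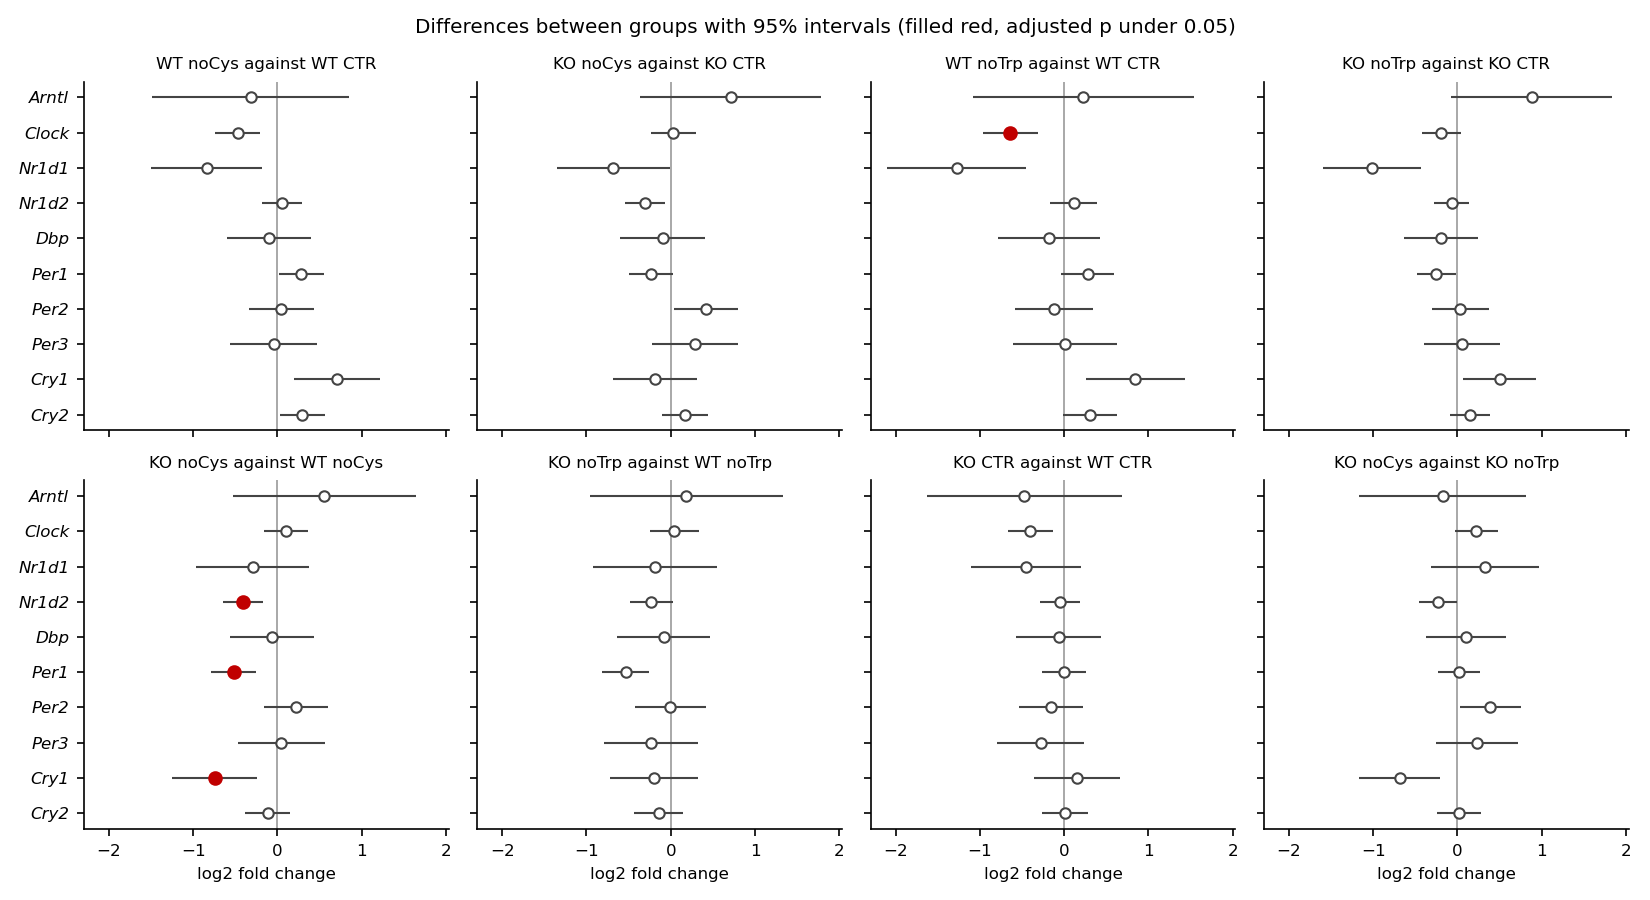
Log2 fold changes (x axes) of the 10 clock genes (y axes) in 8 comparisons of 2 groups, with 95% intervals as lines and called genes in filled red. The 4 filled points are *Clock* in WT noTrp against WT CTR and *Per1*, *Cry1* and *Nr1d2* in KO noCys against WT noCys, and *Arntl* has the widest intervals.

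Upstream sequence from RefSeq (GRCm38.p6) was read for the clock genes whose levels differed, to show motifs of the kinds through which this loop is known to act. Windows from 250 bases before to 50 after a transcription start were given for 9 of the 10 genes, 13 windows in all. Both strands were searched for CACGTG (E-box), CACGTT (E-prime-box), TTATGTAA (D-box, the site of DBP), TGACGTCA (the cyclic AMP response element) and the ROR element (RORE, the site of the REV-ERB receptors), and no match overlapped another. Of 32851 such windows in the genome, 7.15% held the E-box, 4.68% the E-prime-box, 0.938% the D-box, 1.79% the cyclic AMP response element and 0.384% the RORE. Capitals mark the matches below. *Per1* held an E-box in 1 of its 2 windows only, starting 166 bases before that start (chr11:69098699-69098948, plus strand, inside the longer *Per1* span of GENCODE). *Cry1* held an E-box 60 bases before its start and an E-prime-box, read here from the other strand, 79 bases before it (chr10:85185055-85185304, minus strand). *Nr1d1* held an E-prime-box, also from the other strand, 28 bases before its start (chr11:98775378-98775627, minus strand). *Arntl* is shown for its RORE, 26 bases after the second of its starts, in 29 bases (chr7:113207528-113207556, plus strand).
Per1: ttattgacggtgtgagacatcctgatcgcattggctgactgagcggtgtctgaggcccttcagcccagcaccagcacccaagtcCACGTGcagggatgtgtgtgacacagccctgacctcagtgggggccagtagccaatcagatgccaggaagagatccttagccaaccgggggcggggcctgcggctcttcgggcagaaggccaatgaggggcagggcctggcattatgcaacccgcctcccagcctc
Cry1: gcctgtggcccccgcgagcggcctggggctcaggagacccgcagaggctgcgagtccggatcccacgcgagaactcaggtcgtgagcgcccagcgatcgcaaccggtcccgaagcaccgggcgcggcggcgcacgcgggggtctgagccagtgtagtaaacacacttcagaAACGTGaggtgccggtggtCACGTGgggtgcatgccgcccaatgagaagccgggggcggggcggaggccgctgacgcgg
Nr1d1: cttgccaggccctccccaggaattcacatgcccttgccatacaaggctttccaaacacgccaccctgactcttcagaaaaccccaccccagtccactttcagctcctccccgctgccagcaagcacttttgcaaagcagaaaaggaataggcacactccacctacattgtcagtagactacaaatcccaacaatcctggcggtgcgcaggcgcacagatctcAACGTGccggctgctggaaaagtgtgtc
Arntl: ggaaggcagAAAGTAGGTCAgggacggag
Among the others, *Per3* held 2 D-boxes, 205 and 158 bases before its start, and *Cry2* an E-prime-box 166 bases before its start. The windows of *Clock*, *Nr1d2* and *Dbp* held none of the 5 motifs, which says only that these letters are not in these windows. A match is a description of sequence and not a measured binding site.

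*Arntl* (chromosome 7, 113207465 to 113314126, plus strand, 22 exon blocks), the partner of CLOCK and the only clock gene whose loss alone stops the rhythm, was close to the limit of detection, with 4 to 37 counts per library. WT CTR had 0.741, 1.08 and 0.697 CPM, and KO CTR 0.357, 0.999, 0.394 and 0.548 CPM. WT noCys had 0.875, 0.788, 0.665 and 0.453 CPM, and KO noCys 0.902, 1.48 and 0.578 CPM. WT noTrp had 1.68 and 0.299 CPM, and KO noTrp 2.01, 1.15, 0.706, 1.19 and 0.597 CPM. All groups overlapped, and the lowest and the highest library of the series both came from the noTrp diet. Counting error alone was wide, since the 5 counts of KO CTR replicate 1 carried an exact 95% Poisson interval of 0.116 to 0.832 CPM. No comparison called *Arntl*, and its largest value between 2 groups was 0.88 (SE 0.46, adjusted p = 0.335) for KO noTrp against KO CTR. It was 0.52 without KO noTrp replicate 1 and 1.40 without KO CTR replicate 2. *Npas2*, which can stand in for CLOCK in some tissues, was scarcer still, at 0 to 6 counts per library, and did not pass the filter.

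*Clock* (chromosome 5, 76209868 to 76304792, minus strand, 24 exon blocks) encodes the partner of ARNTL in the activator. It was 32.6, 26.1 and 34.4 CPM in WT CTR and 23.1, 23.1, 25.8 and 21.9 CPM in KO CTR. On the noCys diet it was 22.4, 22.6, 25 and 19.5 CPM in WT and 21.3, 29.5 and 20.8 CPM in KO. On the noTrp diet it was 20.9 and 19.0 CPM in WT and 22.4, 21.7, 19.2, 20.4 and 19.0 CPM in KO. The WT CTR libraries lay above every library of each other group but 1, KO noCys replicate 3. *Clock* fell in WT noTrp against WT CTR (−0.64, SE 0.15, adjusted p = 0.0308), and the value for WT noCys against WT CTR was −0.47 (SE 0.13, adjusted p = 0.0848). The *Clock* call in WT noTrp was lost without either WT noTrp library (−0.70 without replicate 1 and −0.57 without replicate 2, adjusted p = 0.112 and 0.0990) and without WT CTR replicate 1 or 3 (−0.60 and −0.56, adjusted p = 0.0923 and 0.111). It was also lost with library totals as the only scaling (−0.55, adjusted p = 0.0617) and in a fit of the WT noTrp and WT CTR libraries alone (−0.64, adjusted p = 0.185). Within KO, *Clock* on the noCys diet differed from the control diet by 0.03 (SE 0.13) and on the noTrp diet by −0.19 (SE 0.11).

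*Nr1d1* (chromosome 11, 98767932 to 98775333, minus strand, 8 exon blocks), the heme-binding repressor of *Arntl*, covered a 6.64-fold range over the libraries, next to the 6.72-fold range of *Arntl*. Control livers had 69.9, 85.4 and 72.6 CPM in WT and 52.2, 74.4, 54.9 and 40.1 CPM in KO. Without cysteine, WT had 50.8, 39.5, 36.0 and 43.1 CPM and KO 21.1, 47.1 and 34.8 CPM. Without tryptophan, WT had 27.9 and 35.0 CPM and KO 18.4, 12.9, 24.5, 33.1 and 49.3 CPM. All 6 amino acid-depleted WT libraries lay below every WT CTR library, and 6 of the 8 depleted KO libraries lay below every KO CTR library. The log2 differences from the control diet were −0.84 (SE 0.31) for WT noCys, −0.68 (SE 0.32) for KO noCys, −1.27 (SE 0.40) for WT noTrp and −1.01 (SE 0.28) for KO noTrp. None of the 4 was called by edgeR (adjusted p = 0.224, 0.143, 0.0832 and 0.0636), whose call for *Nr1d1* was that over the 6 groups. Other fits called 3 of them. For WT noTrp these included DESeq2 (−1.28, adjusted p = 0.0188) and edgeR without the filter (−1.25, adjusted p = 0.0367). For KO noTrp they included DESeq2 (−1.01, adjusted p = 0.0142) and edgeR without the filter (−1.02, adjusted p = 0.0176), and for WT noCys it was a fit of WT noCys and WT CTR alone (−0.84, adjusted p = 0.0100). The KO noCys value was −0.44 without KO noCys replicate 1. Without KO noTrp replicate 5, the highest of its group, *Nr1d1* fell in KO noTrp by 1.33 (adjusted p = 0.0124). The gene shares 263 exon bases, 8.55% of its own, with *Thra* on the opposite strand, and without a stated strand setting reads from that stretch cannot be told apart.

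*Nr1d2* (chromosome 14, 18204054 to 18239127, minus strand), the paralogue of *Nr1d1*, had its lowest mean in KO noCys, where that of *Nr1d1* was lowest in KO noTrp. WT CTR had 93.5, 96.6 and 111 CPM, KO CTR 105, 98.5, 102 and 83.3 CPM, and WT noCys 112, 102, 98.8 and 105 CPM. KO noCys had 82.8, 73.2 and 80.5 CPM. WT noTrp had 119.6 and 97.5 CPM, and KO noTrp 76.7, 84.9, 94.7, 101 and 106 CPM. KO noCys lay below all of WT CTR, KO CTR, WT noCys and WT noTrp, and overlapped with KO noTrp. *Nr1d2* fell in KO noCys against WT noCys by 0.41 on the log2 scale (SE 0.11, adjusted p = 0.0117), and its value against KO CTR was −0.30 (SE 0.11, adjusted p = 0.0660). Without KO noCys replicate 3 the call against WT noCys was lost (−0.36, adjusted p = 0.0719), whereas without KO CTR replicate 4 *Nr1d2* was called lower against KO CTR as well (−0.38, adjusted p = 0.0285).

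*Per1* (chromosome 11, 69095217 to 69109960, plus strand) encodes a repressor that glucocorticoids and feeding can induce within hours. Its group means on both depleted diets lay above the control mean in WT and below it in KO. Control livers had 71.6, 74.8 and 69.5 CPM in WT and 79.5, 64.7, 69.8 and 73.8 CPM in KO. Without cysteine, WT had 97.0, 79.6, 84.3 and 89.2 CPM and KO 63.9, 59.8 and 59.9 CPM. Without tryptophan, WT had 96.6 and 78.2 CPM and KO 73.5, 58.6, 54.6, 46.5 and 68.7 CPM. Every depleted WT library lay above every WT CTR library, and 6 of 8 depleted KO libraries lay below every KO CTR library. *Per1* fell in KO noCys against WT noCys by 0.52 on the log2 scale (SE 0.13, adjusted p = 0.00480), and this call was kept with each library left out in turn. KO noTrp lay below WT noTrp by almost the same amount (−0.53, SE 0.13), but the adjusted p was 0.105, and it passed without WT noTrp replicate 2 (−0.68, adjusted p = 0.0451) or without KO noTrp replicate 1 (−0.62, adjusted p = 0.0410). On the control diet the genotypes differed by 0.00 (SE 0.13), a value whose sign turned under scaling by library totals (0.06). Neither depleted diet against the control diet was called for *Per1* in either genotype. In the fit to all 21 libraries, a genotype difference in the effect of either diet was not called for *Per1* either.

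*Per2* (chromosome 1, 91415982 to 91459324, minus strand) and *Per3* (chromosome 4, 151003652 to 151044665, minus strand), the other members of the family, were called in none of the comparisons. *Per2* ranged from 29.4 to 47.7 CPM in 20 of the 21 libraries, and the remaining one, KO noCys replicate 4, had 68.8 CPM. Beside it, KO noCys replicates 1 and 3 had 34.4 and 43.6 CPM, and KO CTR had 43.2, 41.9, 29.4 and 31.8 CPM. The value for KO noCys against KO CTR was 0.42 (SE 0.18, adjusted p = 0.109). Without KO noCys replicate 4 it was 0.10, and without KO noCys replicate 1 *Per2* was called higher in KO noCys, against KO CTR (0.61, adjusted p = 0.0200) and against KO noTrp (0.58, adjusted p = 0.0283). *Per3* was 50.4, 56.4 and 59.9 CPM in WT CTR, 66.1, 41.0, 40.4 and 35.6 CPM in KO CTR, and between 50.1 and 62.3 CPM in all 7 noCys libraries. On the noTrp diet it was 38.1 and 73.9 CPM in WT and 32.3, 30.7, 54.7, 57.4 and 63.0 CPM in KO. The 2 WT noTrp libraries thus differed 1.94-fold in *Per3*, and the KO noTrp libraries 2.05-fold.

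*Cry1* (chromosome 10, 85131700 to 85185064, minus strand), the late repressor of the loop and a target of the REV-ERB receptors, was 6.35, 10.9 and 8.25 CPM in WT CTR and 8.70, 8.99, 11.2 and 9.23 CPM in KO CTR. Without cysteine it was 13.2, 12.8, 14.7 and 15.3 CPM in WT and 7.89, 7.91 and 9.25 CPM in KO. Without tryptophan it was 21.7 and 8.96 CPM in WT and 14.2, 18.4, 13.1, 11.6 and 10.1 CPM in KO. The WT noCys libraries lay above all control and all KO noCys libraries, while KO noCys stayed within the range of the controls. *Cry1* fell in KO noCys against WT noCys by 0.75 (SE 0.24, adjusted p = 0.0254). This call was lost without WT noCys replicate 4 (−0.70, adjusted p = 0.0553), KO noCys replicate 1 (−0.71, adjusted p = 0.0637) or KO noCys replicate 3 (−0.70, adjusted p = 0.102). KO noCys also had every library below KO noTrp (−0.68, SE 0.23, adjusted p = 0.0534), which was called without KO noTrp replicate 5 (−0.77, adjusted p = 0.0373). The values against the control diet were 0.71 (SE 0.24) for WT noCys, −0.18 (SE 0.24) for KO noCys, 0.84 (SE 0.28) for WT noTrp and 0.50 (SE 0.21) for KO noTrp, with none called (adjusted p = 0.179, 0.634, 0.105 and 0.221). In WT noTrp that value rested on replicate 1, since it was 1.34 (adjusted p = 0.00622) without replicate 2 and 0.07 (adjusted p = 0.948) without replicate 1.

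*Cry2* (chromosome 2, 92403646 to 92434043, minus strand), the weaker of the cryptochrome repressors, varied least, 1.57-fold over the libraries. WT CTR had 44.3, 43.5 and 42.9 CPM, WT noCys 53.9, 57.2, 51.9 and 51.0 CPM, and WT noTrp 55.3 and 52.2 CPM. All 6 depleted WT libraries were above all WT CTR libraries, by 0.30 for either diet (SE 0.13 and 0.15, adjusted p = 0.312 and 0.304). KO livers had 37.7, 37.8, 49.8 and 50.3 CPM on the control diet, 49.96, 49.8 and 48.1 CPM without cysteine and 50.8, 36.5, 44.2, 54.5 and 57.2 CPM without tryptophan. These KO groups overlapped. KO noCys lay below WT noCys without overlap, by 0.12 on the log2 scale (SE 0.13), and that sign turned under scaling by library totals (0.10). *Cry2* shares 295 exon bases, 4.67% of its own, with *D930015M05Rik* on the opposite strand.

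*Dbp* (chromosome 7, 45705088 to 45710203, plus strand, 4 exon blocks), a transcription factor whose mRNA swings widely over the day in liver, had similar means in all groups. It was 129, 128 and 86.3 CPM in WT CTR and 111, 122, 106 and 98.3 CPM in KO CTR. The noCys livers held 120.4, 101, 71.1 and 134 CPM of it when WT and 95.7, 99.9 and 111 CPM when KO. Of the noTrp livers, the WT pair had 91.1 and 111 CPM and the KO animals 56.8, 73.6, 88.0, 112 and 146 CPM. Group means lay between 95.3 and 114 CPM, all groups overlapped, and KO noTrp held both the lowest and the highest *Dbp* library of the series. The log2 differences between 2 groups ran from −0.20 to 0.10, none of them called. The interval for KO noCys against KO CTR was −0.60 to 0.41, and the sign of that value (−0.10) turned under scaling by library totals (0.03). *Dbp* shares 539 exon bases, 18.0% of its own, with *Sphk2* on the opposite strand, whose reads cannot be told apart from it there.

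The order of the levels within a library was the same at its ends in all 21 livers. Per kilobase of exon, *Arntl* was the lowest and *Dbp* the highest of the 10 transcripts in 21 of 21 libraries. *Arntl* had 0.0397 to 0.267 CPM per kilobase and *Dbp* 19.0 to 48.7 CPM per kilobase. The next lowest transcript, which was *Clock* in 19 libraries, stood 6.10 to 36.0 times above *Arntl*. The ratio of *Dbp* to *Arntl* per kilobase ran from 297 to 437 in WT CTR, 306 to 784 in KO CTR, 269 to 741 in WT noCys and 170 to 481 in KO noCys. On the noTrp diet it was 137 and 933 in the 2 WT libraries and 71.1 to 614 in the KO libraries. Each group's range overlapped with that of each other group, and the largest departures in both directions were on the noTrp diet. In no library was *Dbp* less than 71.1 times above *Arntl* per kilobase.

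A second ratio did separate groups. *Nr1d1* to *Cry1* per kilobase was 8.51 to 11.9 in WT CTR and 4.72 to 8.98 in KO CTR. On the noCys diet the WT livers ran from 2.65 to 4.18 and the KO livers from 2.90 to 6.46. On the noTrp diet the WT pair had 1.39 and 4.24 and the KO livers ran from 0.760 to 5.31. All depleted WT libraries were below all WT CTR libraries, while the depleted and control KO ranges overlapped. The pair was chosen after the values were seen, so this ratio was not tested.

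Means of neighbouring groups rarely separated when groups were ranked for each gene. The libraries of groups next to each other in the order of means overlapped throughout for 8 of the 10 genes. For *Per1* the 2 highest means were 87.5 ± 7.4 CPM in WT noCys (SD, n = 4) and 87.4 ± 13 CPM in WT noTrp (n = 2). Those of KO CTR (72.0 ± 6.2 CPM, n = 4) and WT CTR (72.0 ± 2.7 CPM, n = 3) lay between, and those of KO noCys (61.2 ± 2.4 CPM, n = 3) and KO noTrp (60.4 ± 11 CPM, n = 5) were lowest, and among neighbours only WT CTR and KO noCys did not overlap. For *Cry2*, only WT noCys (53.5 ± 2.8 CPM, n = 4) and KO noCys (49.3 ± 1.1, n = 3) did not. For *Nr1d1* the means of the control livers came first, 76.0 ± 8.3 CPM in WT (n = 3) and 55.4 ± 14 CPM in KO (n = 4). Those of the noCys livers followed, 42.4 ± 6.3 CPM in WT (n = 4) and 34.3 ± 13 CPM in KO (n = 3), and the noTrp livers were lowest, 31.5 ± 5.0 CPM in WT (n = 2) and 27.6 ± 14 CPM in KO (n = 5), with overlap at each step.

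The animals of KO noTrp, the largest group, differed widely among themselves. The highest library exceeded its lowest by 3.84-fold for *Nr1d1*, 3.37-fold for *Arntl*, 2.56-fold for *Dbp*, 2.05-fold for *Per3* and 1.82-fold for *Cry1*. Over the 10 clock genes the median of this ratio in KO noTrp was 1.70, against 1.45 over the 12495 genes with a geometric mean above 1 CPM (both from log2 CPM with a prior count of 2), and KO noTrp was the only group in which the clock genes' median was above that of all genes. In the other 5 groups the clock genes' median lay between 1.19 and 1.31 and that of all genes between 1.25 and 1.37. The same libraries often sat at the ends. KO noTrp replicates 1 and 2 were the 2 lowest of the 5 for *Nr1d1*, *Nr1d2*, *Dbp*, *Per2* and *Per3* and the 2 highest for *Cry1* and *Clock*. Replicate 5 was the highest for *Nr1d1*, *Nr1d2*, *Dbp* and *Per3* and the lowest for *Cry1*, *Arntl* and *Clock*. *Per1* and *Cry2* were ordered otherwise. *Per1* was highest in replicate 1 (73.5 CPM), with replicate 5 next (68.7 CPM). *Cry2* was lowest in replicate 2 (36.5 CPM) but had 50.8 CPM in replicate 1. In WT noTrp, replicate 1 had more *Cry1* and *Arntl* and less *Per3*, *Nr1d1* and *Dbp* than replicate 2, but also more *Nr1d2* (119.6 and 97.5 CPM) and *Per2* (38.4 and 36.9 CPM), unlike KO noTrp replicates 1 and 2. Where animals of 1 group differ in this way, the hour of collection and the time since feeding were not given, and their part in the spread was not tested.

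Across all 21 libraries, the pair of clock genes with the strongest correlation of log2 CPM was *Nr1d1* with *Dbp* (Pearson's r = 0.657, Spearman's rho = 0.594, n = 21). With each library expressed as a deviation from its group mean, r was 0.706, and without the 2 libraries farthest from the median of *Nr1d1* it was 0.452. *Arntl* and *Per3* went opposite ways (r = −0.543, rho = −0.510, and −0.712 for deviations), as did *Cry1* and *Nr1d1* (r = −0.525, rho = −0.443, and −0.433 for deviations). Without the 2 farthest libraries these were −0.345 and −0.464. *Per2* and *Dbp* had r = 0.459. These 45 pairs share libraries and depth, and the low counts of *Arntl* weaken its values, so they are given as a description with no test.

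**Figure D3:**
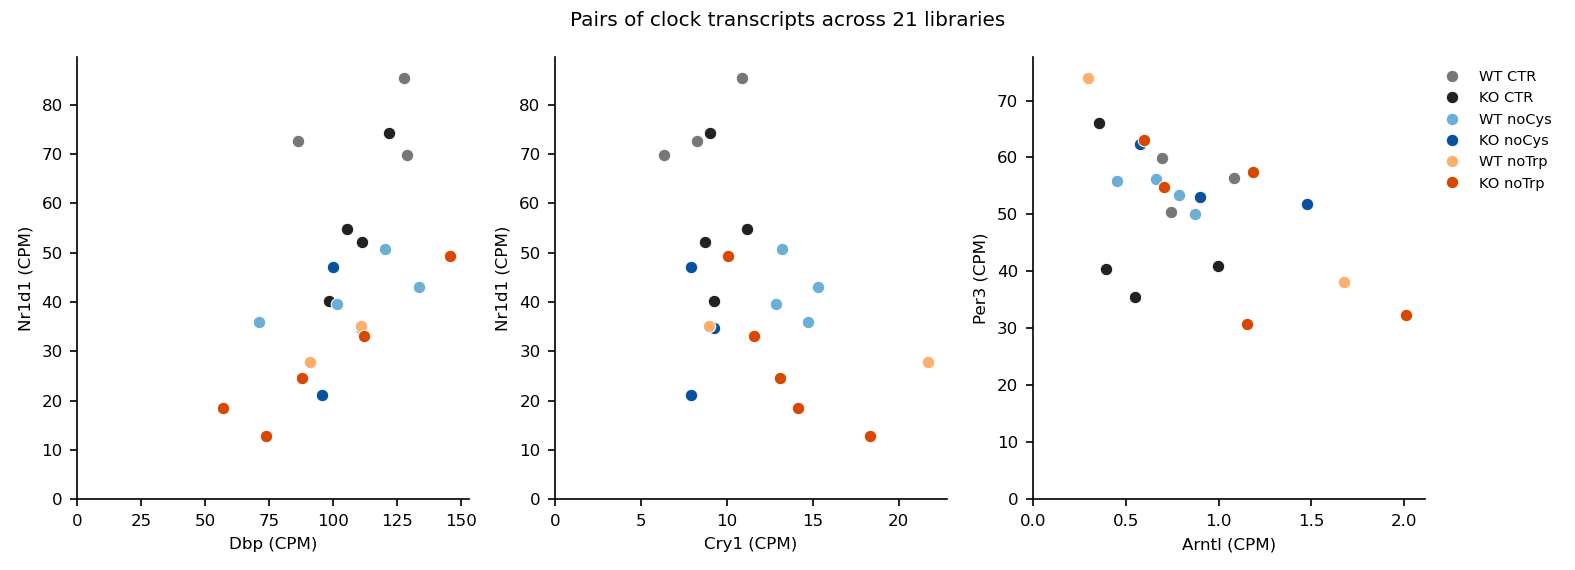
CPM of *Nr1d1* against *Dbp*, *Nr1d1* against *Cry1* and *Per3* against *Arntl* (linear axes from 0), with 1 point per library coloured by group. The KO noTrp libraries spread along each panel, from 12.9 to 49.3 CPM of *Nr1d1* and from 30.7 to 63.0 CPM of *Per3*.

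Of 16 further clock components, 14 passed the filter, and *Rorb*, like *Npas2*, did not (0 to 2 counts per library). In KO noCys against WT noCys, 2 were called higher and 3 lower, 5 of 14 beside 28.2% of all genes. *Hlf* (−0.74, SE 0.13, adjusted p = 0.000398) and *Tef* (−0.35, SE 0.10, adjusted p = 0.0163), which encode the transcription factors most related to DBP, and *Bhlhe40* (−0.63, SE 0.22, adjusted p = 0.0400), a repressor at E-boxes, fell. *Timeless* (0.80, SE 0.23, adjusted p = 0.0126) and *Nono* (0.54, SE 0.13, adjusted p = 0.00333), a PER-binding protein with roles in RNA processing, rose. The median over the 14 was −0.16, beside −0.02 over all genes. *Hlf* had 51.2, 51.2 and 57.4 CPM in KO noCys and 98.5, 73.7, 84.2 and 98.2 CPM in WT noCys, with no overlap, while *Dbp* itself overlapped in the same livers.

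In KO noCys against KO CTR, 2 of 14 were called (20.2% of all genes), and in WT noTrp against WT CTR 1 of 14 (3.19% of all genes). *Hlf* fell (−0.44, adjusted p = 0.0230) and *Nono* rose (0.58, adjusted p = 0.00288) in KO noCys against KO CTR, and *Nfil3*, which encodes a repressor at the D-box, rose in WT noTrp against WT CTR (2.05, adjusted p = 0.0435). *Nono* was also higher in KO noCys than in KO noTrp (0.38, adjusted p = 0.0403) and was the 1 component called for a genotype difference in the effect of removing cysteine (0.59, adjusted p = 0.0471), 1 of 14 in each, beside 13.9% and 7.44% of all genes. *Nfil3* reached 71.8 CPM in WT noTrp replicate 1 but 13.9 CPM in replicate 2, near the 6.74 to 13.0 CPM of WT CTR. By edgeR, 0 of 14 components were called in WT noCys against WT CTR (4 at an unadjusted p under 0.05, beside 13.9% of all genes), KO noTrp against KO CTR (3, beside 16.9%), KO CTR against WT CTR (2, beside 9.59%), KO noTrp against WT noTrp (2, beside 8.91%) and the tryptophan interaction (3, beside 5.71%). DESeq2 was not counted for these lists.

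All 16 liver outputs of the clock were tested. In KO noCys against WT noCys 4 of 16 were called lower and none higher, beside 28.2% of all genes called and 13.4% called lower, with a list median of −0.43. The largest were *Elovl3*, which encodes a fatty acid elongase (−1.63, SE 0.35, adjusted p = 0.00187), *Cyp7a1*, the rate-limiting enzyme of bile acid synthesis (−1.42, SE 0.45, adjusted p = 0.0229), and *Usp2*, a deubiquitinase (−1.17, SE 0.26, adjusted p = 0.00208). *Por*, the electron donor of cytochromes P450, was called higher in all 4 comparisons with a control diet, by 1.13 in WT noCys, 0.76 in KO noCys, 1.53 in WT noTrp and 0.69 in KO noTrp (adjusted p = 0.0152, 0.00685, 0.00307 and 0.0347). *Elovl3* was called lower in 3 of them, by −1.76 in KO noCys, −2.76 in WT noTrp and −1.49 in KO noTrp (adjusted p = 0.00162, 0.00432 and 0.0112). *Elovl3* had 90.5 to 127 CPM in WT CTR and 8.25 and 23.5 CPM in WT noTrp. Over the 21 libraries *Nr1d1* correlated with *Por* at r = −0.754 and with *Elovl3* at r = 0.663, and at −0.419 and 0.128 as deviations from group means. KO noCys against KO CTR called 2 outputs higher and 3 lower in all, 5 of 16 beside 20.2% of all genes, and *Cdkn1a*, a cell cycle inhibitor, was the other called higher (2.73, adjusted p = 0.0369). The outputs called were 1 of 16 in WT noCys, 2 of 16 in WT noTrp and 2 of 16 in KO noTrp, each against its control diet, beside 0.661%, 3.19% and 1.87% of all genes. For a genotype difference in the effect of removing cysteine 1 of 16 was called, *Usp2* (−1.50, adjusted p = 0.0152), beside 7.44% of all genes, with a list median of −0.74.

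Glucocorticoids induce *Per1*, and 6 other genes known to be induced by them were read beside it. Of these 6, *Dusp1* (2.28 and 2.52, adjusted p = 0.0261 and 0.0103) and *Fkbp5* (1.46 and 1.56, adjusted p = 0.0305 and 0.0186) were called higher in WT noCys and in WT noTrp against WT CTR, where the list's medians were 1.38 and 1.52 and 0.661% and 3.19% of all genes were called. *Per1* itself was not called in either. In KO noCys against WT noCys, *Dusp1*, a phosphatase that restrains MAP kinases, fell by 1.82 (SE 0.43, adjusted p = 0.00353), and *Tsc22d3*, which encodes GILZ, fell by 1.09 (SE 0.32, adjusted p = 0.0141). *Dusp1* had 71.2, 137, 207 and 119 CPM in WT noCys and 43.2, 24.4 and 45.8 CPM in KO noCys, with no overlap. It was the 1 gene of the list called for a genotype difference in the effect of removing cysteine (−3.03, adjusted p = 0.00473), 1 of 6 beside 7.44% of all genes. Thus 2 of 6 were called between the genotypes on the noCys diet, beside 28.2% of all genes. In KO CTR against WT CTR edgeR called 0 of 6. There 3 had an unadjusted p under 0.05 (9.59% of all genes) and the list's median was 0.67. For a genotype difference in the effect of removing tryptophan edgeR also called 0 of 6. There 4 had an unadjusted p under 0.05 (5.71% of all genes) and the list's median was −1.31. In KO noCys against KO CTR, *Sgk1* was called higher (1.30, adjusted p = 0.0393) and the list's median was 0.20, where the value of *Per1* was −0.23 (SE 0.13, adjusted p = 0.206). Over the 21 libraries *Per1* correlated with *Dusp1* at r = 0.656, *Tsc22d3* at 0.546, *Tat* at 0.490 and *Fkbp5* at 0.346, and at 0.205, 0.187, 0.464 and 0.478 as deviations from group means. Its correlation with the rest of the list, *Sgk1* included, was not computed. The part of glucocorticoids in the *Per1* difference was not tested.

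Of the 9 temperature-responsive genes, which include cold-inducible RNA-binding proteins and heat shock proteins, 5 were called higher and none lower in KO noCys against WT noCys, beside 28.2% of all genes called and 14.8% called higher, with a list median of 0.64. In KO noCys against KO CTR 5 of 9 were called higher, beside 20.2% of all genes called. *Hspa8* (1.31, adjusted p = 1.36e-05), *Hsph1* (1.098, adjusted p = 0.00203) and *Hsp90aa1* (0.99, adjusted p = 0.0202) were the largest of them against WT noCys. *Hspa8* had 1132, 1493 and 1789 CPM in KO noCys and 559 to 613 CPM in WT noCys. The list joins cold-inducible with heat shock genes, and only heat shock genes are named here. Its counts and median therefore give no direction of temperature. The part of body temperature in the clock gene values was not tested.

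Of the 9 fasting and feeding genes, *Igfbp1*, which encodes an insulin-repressed binding protein of insulin-like growth factors, and *Ppp1r3g*, a glycogen-targeting subunit induced by fasting, were called higher in WT noTrp against WT CTR (3.87 and 4.73, adjusted p = 0.0189 and 0.0308), 2 of 9 beside 3.19% of all genes. *Igfbp1* differed between the 2 WT noTrp libraries, at 1946 and 206 CPM, and had 27.7 to 109.7 CPM in WT CTR. In KO noTrp it was 1198, 678, 224, 253 and 141 CPM in replicate order, so the 2 libraries with the least *Nr1d1*, *Dbp* and *Per3* had the most *Igfbp1*. Over the 21 libraries *Nr1d1* correlated with *Igfbp1* at r = −0.672, and at −0.466 as deviations from group means. *Pck1*, which encodes a gluconeogenic enzyme, fell in KO noCys against WT noCys (−0.64, adjusted p = 0.00430) and was called for a genotype difference in the effect of removing cysteine (−0.87, adjusted p = 0.0188), 1 of 9 in each, beside 28.2% and 7.44% of all genes. The part of feeding state in these values was not tested.

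**Figure D4:**
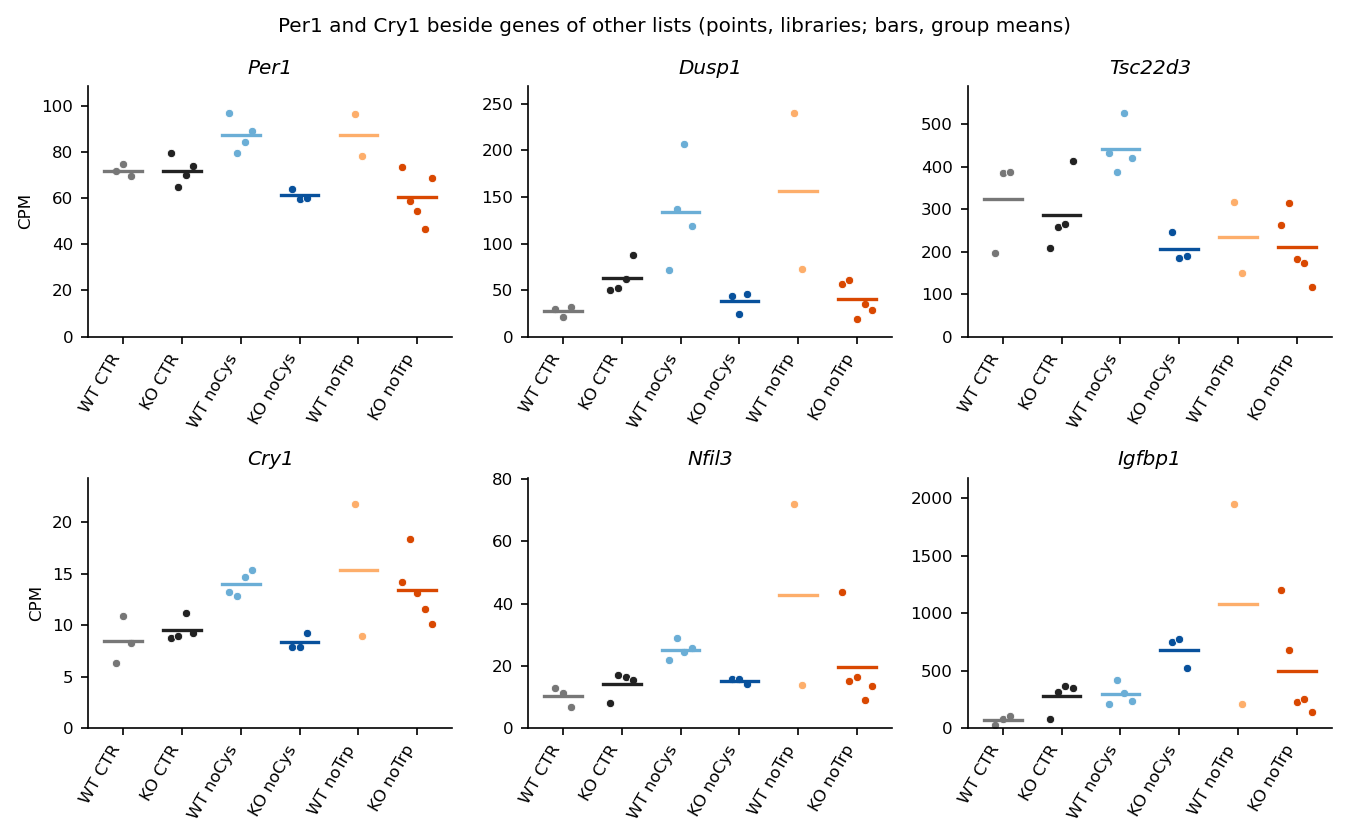
CPM (y axes from 0) of *Per1*, *Dusp1*, *Tsc22d3*, *Cry1*, *Nfil3* and *Igfbp1* in the 6 groups (x axes), with 1 point per library and a bar at the group mean. *Per1*, *Dusp1*, *Tsc22d3* and *Cry1* in KO noCys lie below each WT noCys library, and WT noTrp replicate 1 has the highest *Cry1* (21.7 CPM), *Dusp1* (240.3 CPM), *Nfil3* (71.8 CPM) and *Igfbp1* (1946 CPM).

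Among all tested genes, those whose log2 CPM most resembled *Arntl* over the 21 libraries were *Snx5* (r = 0.844), *Lsm14a* (0.792), *Dhx9* (0.743), *Cast* (0.736) and *Ywhah* (0.720). The lowest correlations with *Arntl* were those of *Tmem91* (r = −0.766), *Psmg3* (−0.725), *Trim12a* (−0.715), *Hacd4* (−0.713) and *Ppp1r3e* (−0.708). For *Dbp* the nearest were *Bcar1* (r = 0.808), *Bid* (0.775), *Map3k4* (0.761), *Fam171b* (0.743) and *Eva1a* (0.728). No clock gene was among these 15, and with *Arntl* at no more than 37 counts per library its neighbours are a description of these libraries.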

How the data were processed

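The authors isolated liver RNA with TRIzol, selected poly(A) RNA, prepared NEBNext Ultra libraries, sequenced them as paired ends, aligned the reads to GRCm38 with HISAT2 2.1.0 and counted them per gene with HTSeq 0.11.0 (versions per the submitters' processing notes). The deposited table holds these counts as raw whole numbers. Neither the annotation release nor a strand setting is given in the sources used here, and 1 column that matched no sample was not used. Groups and replicate numbers came from the sample titles. p-values measure the spread between animals as the titles name them.

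Symbols and coordinates were taken from GENCODE M21 (GRCm38), which held 45229 of the 46078 identifiers. Genes were kept by filterByExpr (minimum count 10, minimum total 15), libraries were scaled by TMM (factors 0.883 to 1.14), and edgeR 4.0.16 in R 4.3.3 was fitted with 1 coefficient for each of the 6 groups. Two-sided quasi-likelihood tests were adjusted over 14370 genes. Correlations used log2 CPM with a prior count of 2. Scripts were tested on simulated counts. Alternatives were RLE size factors, library totals alone, no filter, DESeq2 1.42.0, the replicate number as a block, a fit of only the compared groups, and each library left out.

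The clock genes and the lists were chosen with earlier results of these data known. Genes named were the 10 clock genes, *Cth*, up to 3 called genes per direction, list and comparison, and 15 genes by likeness to *Arntl* or *Dbp*. Outside that rule, *Npas2*, *Rorb* and *Tat* and the genes that share exon bases with clock genes were named after their values were seen. The libraries and pairs singled out were chosen after their values were seen. Checks of tissue used 9 marker lists. Their summed CPM ranged over the libraries from 56.9 to 160.3 (Kupffer cell and leukocyte), 81.8 to 168 (endothelial), 168 to 354 (stellate), 16.1 to 62.3 (cholangiocyte), 100.4 to 363 (erythroid), 3.62 to 26.8 (adipocyte) and 10.5 to 34.9 (pancreas). Intervals of counts cover counting error only.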

Additional observations from a re-analysis of the deposited data

How the results depend on the processing

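RLE size factors changed no count of clock genes called by over 1.5 times, and no called clock gene value changed direction under any alternative. With libraries scaled by their totals only, all genes had a median of 0.20 in KO noCys against WT noCys, 0 clock genes were called there instead of 3 (*Per1* −0.31, *Cry1* −0.53 and *Nr1d2* −0.20, or −0.51, −0.73 and −0.40 relative to that median), 0 instead of 1 in WT noTrp against WT CTR, and 1 instead of 0 for the cysteine interaction (*Clock*). Without the filter, 2 were called in WT noTrp against WT CTR (*Clock* and *Nr1d1*), and 1 each in KO noTrp against KO CTR and KO noCys against KO noTrp. DESeq2 called 1 each in WT noCys against WT CTR, KO noCys against KO CTR, KO noTrp against KO CTR, KO noTrp against WT noTrp and KO noCys against KO noTrp, and 2 in WT noTrp against WT CTR (*Clock* and *Nr1d1*). A fit of only the compared groups called 1 in WT noCys against WT CTR (*Nr1d1* −0.84, adjusted p = 0.0100, edgeR), 1 in KO noCys against KO noTrp, 2 for the cysteine interaction (*Per1* and *Cry1*) and 0 in WT noTrp against WT CTR. Leaving out 1 library at a time gave 1 to 3 calls in KO noCys against WT noCys and 0 to 1 in KO noCys against KO CTR, WT noTrp against WT CTR, KO noTrp against KO CTR, KO noTrp against WT noTrp and KO noCys against KO noTrp. The cause of these moves was not tested.

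Of 41 pairs of same-numbered libraries, 9 had a correlation over 0.1 (range −0.355 to 0.353). Both pairs of WT noTrp with KO noTrp were among them (0.353 and 0.126), as was replicate 1 of WT noCys and of KO noCys with replicate 1 of both noTrp groups (0.144 to 0.191). Because not every pair was over 0.1, the numbers were not used as pairs, and 7 of 21 libraries correlated best with their own number. With the replicate number as a block, 0 clock genes were called in WT noTrp against WT CTR, 1 in KO noTrp against KO CTR (*Nr1d1*, −1.34) and 1 for the cysteine interaction (*Per1*, −0.54), with no other count moved. Depth limits *Arntl*, at 4 to 37 counts per library, and the 2 WT noTrp animals limit that group; where 1 of them was left out, the lone library was assumed to vary like the other groups.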
